A study of Canis lupus familiaris with 12 samples.

Results

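miR-210 was followed in small RNA libraries of CHMm, a canine mammary gland tumor line grown out of a metastatic lesion (pleural effusion), and of CHMmTAM, its tamoxifen (TAM)-resistant derivative. It is the single row of the deposited count table named exactly cfa-miR-210, 1 of 453 miRNAs listed. It was picked for its known link to hypoxia, by a rule that did not use its counts. The study had already listed it among the miRNAs lower in CHMmTAM. CHMmTAM was obtained by raising the TAM concentration over 10 months up to 10 µM, followed by 1 month at that concentration and 1 week without the drug. After the resistant lines, the study describes a medium of phenol-red-free DMEM with charcoal-stripped, steroid-depleted serum and hydroxytamoxifen. It does not say whether CHMm was kept in the same medium. The oxygen level of the cultures is not given in the sources used here. Each line is represented by 3 libraries, and nothing states that they came from separate cultures, so the spread between them may be technical. The p-values of the fit rest on that spread as shared over all tested miRNAs, and not on the spread of miR-210 alone. CHMmTAM is 1 selected line, so that resistance and any other difference gained during the months of culture cannot be told apart.

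miR-210 is the miRNA most regularly raised when oxygen is short. Its gene is switched on by the hypoxia-inducible factors (HIF), transcription factors whose alpha subunits are destroyed in oxygenated cells through prolyl hydroxylases and the VHL ubiquitin ligase. Among its known targets are ISCU, a scaffold protein for iron-sulfur clusters of the respiratory chain, and EFNA3, an ephrin ligand that limits the formation of vessels. In breast and other solid tumors it is widely used as a readout of hypoxia.

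In the RefSeq genes of the dog assembly UU_Cfam_GSD_1.0 the miRNA matched 1 entry, MIR210, on chromosome 18. It overlaps the lncRNA gene LOC119864115. The next genes on either side are RASSF7, which encodes a Ras association domain protein, and PHRF1, which encodes a protein with PHD and RING finger domains. The nearest other miRNA gene on the chromosome is MIR129-2, and 22 annotated genes, 16 of them protein-coding, stand between them. MIR210 is thus not annotated beside another miRNA gene. The submitters' processing notes name the build CanFam3.1, so no positions are given from this assembly.

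miR-210 fell sharply in the resistant line. The libraries of CHMm held 1726, 2581 and 2052 reads of miR-210 in replicates 1, 2 and 3. Those of CHMmTAM held 702, 731 and 527. All counts of a library summed to between 7512659 and 11450062 in CHMm and to between 8137736 and 12482211 in CHMmTAM, so the largest library of the series, CHMmTAM replicate 1, still held fewer reads of miR-210 than the smallest, CHMm replicate 1.

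As CPM (the count scaled to a common library total, here by all counts), miR-210 stood at 229.7, 225.4 and 232.8 in the 3 CHMm libraries. The 95% Wilson intervals, which cover counting error only, ran from 219.2 to 240.8, from 216.9 to 234.3 and from 223.0 to 243.1 CPM. In CHMmTAM the values were 56.2, 66.1 and 64.8 CPM, with intervals from 52.2 to 60.6, from 61.4 to 71.0 and from 59.5 to 70.5 CPM. No interval of one line reached any interval of the other. The level was far above what the depth can resolve, since 3 counts correspond to between 0.240 and 0.399 CPM.

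**Figure D1:**
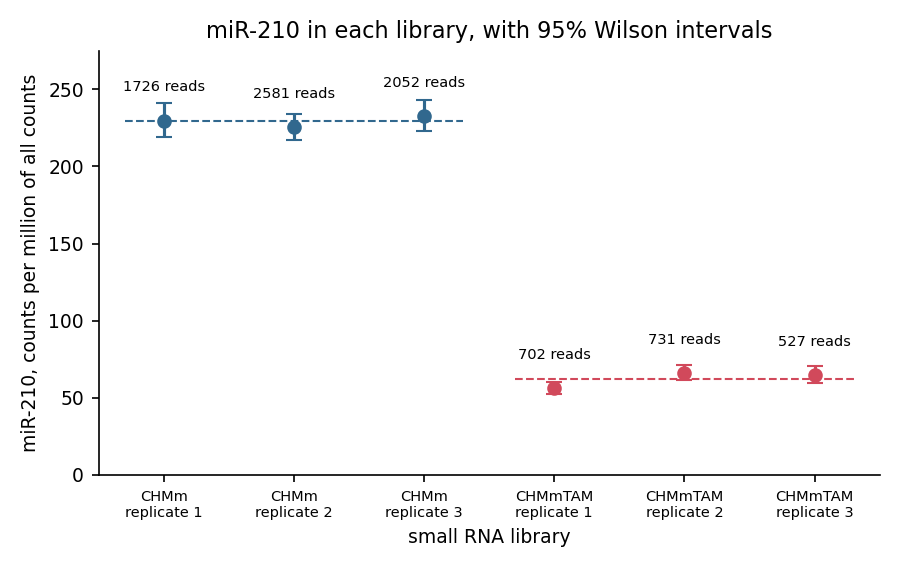
miR-210 in CPM of all counts (vertical axis) in each of the 6 small RNA libraries (horizontal axis), with 95% Wilson intervals as bars, the mean of each line as a dashed line and the number of reads beside each point. The 3 CHMm libraries lie between 225.4 and 232.8 CPM and the 3 CHMmTAM libraries between 56.2 and 66.1 CPM.

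Scaled by the TMM factors used for the test, miR-210 had 236.0, 222.2 and 229.4 CPM in CHMm and 55.0, 66.3 and 66.2 CPM in CHMmTAM. The line means were 229 ± 6.90 and 62.5 ± 6.52 CPM (SD, n = 3), so that 27.3% of the CHMm level was left in the resistant line. The lowest CHMm library was 3.35-fold above the highest CHMmTAM library, and the widest pair of libraries differed 4.29-fold. With 3 libraries against 3, the exact two-sided permutation test gave p = 0.1, the smallest value this design allows.

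In the fit across all miRNAs, miR-210 had a log2 fold change of -1.88 (SE 0.08), CHMmTAM minus CHMm. This is a 3.68-fold lower level, with an approximate 95% interval from 3.29 to 4.12. The quasi-likelihood test of edgeR gave an FDR of 2.27e-91, adjusted after Benjamini and Hochberg over the 284 miRNAs whose 6 counts summed to 10 or more. miR-210 passed the thresholds used in the study, an FDR below 0.05 and a log2 fold change beyond 1 in either direction. Of the tested miRNAs 15, or 5.28%, passed both as lower in CHMmTAM, and 53, or 18.7%, passed the FDR threshold alone as lower. For 65 miRNAs, or 22.9%, every CHMm library lay above every CHMmTAM library as it did for miR-210, so this absence of overlap alone was common.

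The libraries of CHMm agreed more closely than those of CHMmTAM. The coefficient of variation of miR-210 was 3.01% in CHMm and 10.4% in CHMmTAM (n = 3 each, TMM-scaled CPM). Against the library totals, the 3 counts of CHMm varied no more than counting error allows, with a chi-square of 1.22 on 2 degrees of freedom, where 5.99 is the 5% limit. The 3 counts of CHMmTAM gave 10.6 and exceeded that limit. CHMmTAM replicate 1 was the low library, and its interval ended below the start of that of replicate 2 but overlapped that of replicate 3. Without it, the log2 fold change of miR-210 was -1.77 (SE 0.09), and all 3 CHMm libraries were still above the remaining CHMmTAM libraries. Among the 117 miRNAs with a mean above 50 CPM over the 6 libraries, 24 varied less than miR-210 in CHMm and 107 varied less in CHMmTAM. Counting error alone would give the log2 fold change an error of 0.037, and the fitted error was 0.083. The fitted error draws on the spread between libraries as shared over all tested miRNAs, and this spread set it more than the depth did.

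miR-210 was a miRNA of middling abundance in both lines. Its rank by reads was 85, 88 and 88 in the CHMm libraries, where from 308 to 347 miRNAs had any read, and 113, 113 and 111 in the CHMmTAM libraries, where from 328 to 358 did. Within a library it thus exceeded between 69.0% and 70.1% of the tested miRNAs in CHMm and between 60.2% and 60.9% in CHMmTAM. It made up 0.0229% of all counts in CHMm and 0.00624% in CHMmTAM. By mean CPM its rank among the 284 tested miRNAs moved from 87 to 113. By the CPM lost it ranked 25, behind miRNAs that are far more abundant.

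The distribution of fold changes placed miR-210 at its lower end. Across all tested miRNAs the median log2 fold change was 0.06, with the central 50% between -0.27 and 0.47 and the central 90% between -1.49 and 1.41. miR-210 ranked 6 from the most negative value and 3 by p-value. Of the 117 miRNAs above 50 CPM, it ranked 2 by fold change, next to miR-218. Among the 15 that fell past both thresholds, it ranked 5 by fold change and 5 by abundance in CHMm.

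**Figure D2:**
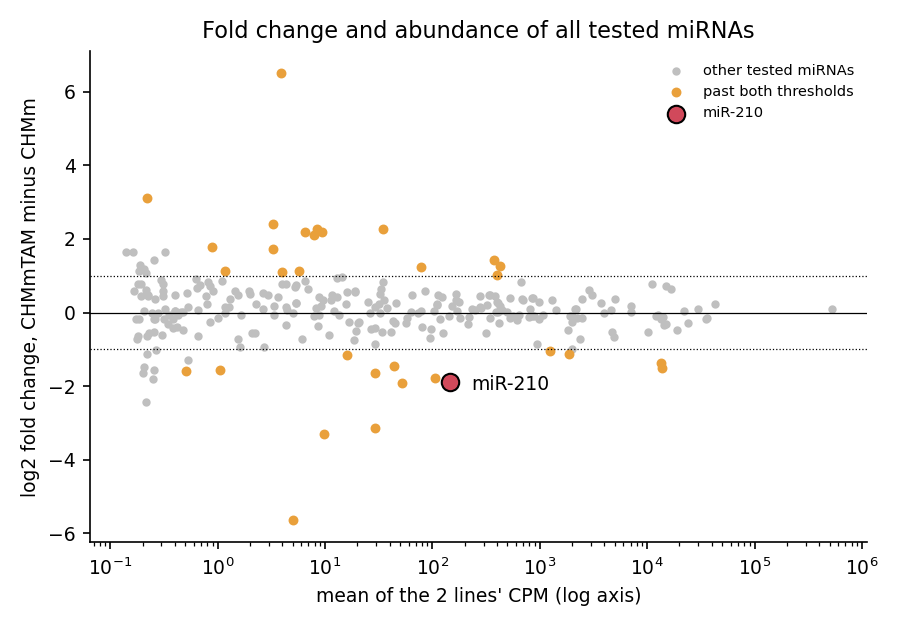
Log2 fold change of CHMmTAM minus CHMm (vertical axis) against the mean CPM of both lines (horizontal axis, log scale) for the 284 tested miRNAs, with those past both thresholds in orange and miR-210 in red. miR-210 lies at -1.88, below the dotted line at -1, at an abundance where few miRNAs reach such a fold change.

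The miRNAs next to miR-210 in the order of fold changes fell into well counted and barely counted ones. Ahead of it, miR-184 had 383, 635 and 456 reads in CHMm and 75, 77 and 39 in CHMmTAM, with a log2 fold change of -3.13. miR-8804 had at most 7 reads in any library, its lines overlapped, and its FDR was 0.0563 by edgeR's quasi-likelihood test, with 0.0461 under RLE and 0.0362 under upper-quartile scaling. miR-218, a miRNA encoded within SLIT genes, had a log2 fold change of -1.92. Behind miR-210 came miR-455 with at most 6 reads, miR-375, a miRNA of endocrine and epithelial cells, at -1.79, and miR-8835 with at most 5 reads. The FDRs of miR-455 and miR-8835 were 0.147 and 0.206 by the same test.

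The ratio of miR-210 to these neighbours needs no scaling of the libraries. Per read of miR-218 there were 3.15, 2.57 and 2.67 reads of miR-210 in CHMm and 2.76, 2.80 and 3.01 in CHMmTAM, and the lines overlapped. The mean log2 ratio differed by 0.04 (SE 0.10) between the lines. No test is given, since these neighbours were chosen by their fold change. Per read of miR-375 there were 1.48, 1.40 and 1.37 reads of miR-210 in CHMm and 1.28, 1.31 and 1.40 in CHMmTAM. These lines overlapped too, and the mean log2 ratio differed by -0.09 (SE 0.05). Against miR-184, the ratio rose from between 4.06 and 4.51 in CHMm to between 9.36 and 13.5 in CHMmTAM. All CHMmTAM ratios were above all CHMm ratios.

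In profile over the 6 libraries, miR-375 was also the miRNA most like miR-210. Likeness was measured as the Euclidean distance between log2 CPM values after each miRNA's own mean was taken off, and the 2 groups of libraries set most of it. The nearest were miR-375 at 0.17, miR-218 at 0.24, miR-146b at 0.35, miR-221 at 0.50 and miR-147 at 0.63, where the median over the 283 other tested miRNAs was 2.47. miR-146b, of a family known for damping NF-kB signals, had a log2 fold change of -1.63. miR-221, a repressor of the cell cycle inhibitor p27 and of the estrogen receptor alpha, had -1.52, and miR-147 had -1.46. Separate lines follow from the choice by profile. miR-375, miR-218 and miR-146b shared with miR-210 the lowest value in CHMmTAM replicate 1, and miR-221 and miR-147 did not.

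**Figure D3:**
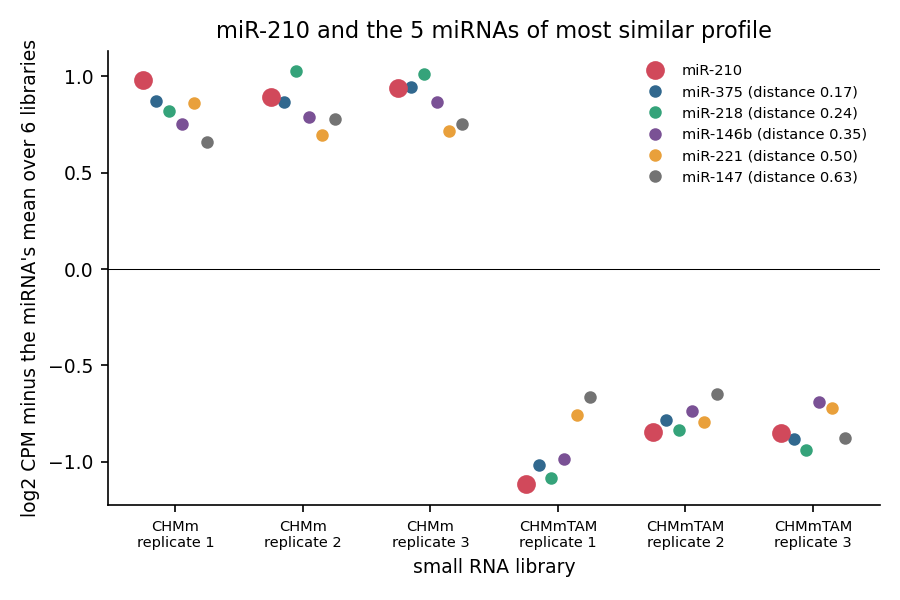
Log2 CPM minus each miRNA's mean over the 6 libraries (vertical axis) for miR-210 and the 5 miRNAs of smallest distance to it, by library (horizontal axis, points set side by side). All 6 miRNAs are above 0 in the CHMm libraries and below 0 in the CHMmTAM libraries, and CHMmTAM replicate 1 is the lowest library of miR-210.

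miRNAs that matched miR-210 in level in CHMm fell less than it did or rose, where 5.28% of all tested miRNAs fell past both thresholds. The 3 next above it were miR-181c, miR-197 and miR-19a, between 234 and 243 CPM in CHMm, and the 3 next below were miR-365, miR-193a and miR-10b, between 203 and 227 CPM. In CHMmTAM, where miR-210 had 62.5 CPM, these 6 had from 192 to 549 CPM. miR-10b, a HOX-cluster miRNA studied in metastasis, started at 203 ± 7.56 CPM and reached 549 ± 38.7 CPM (SD, n = 3), so that it went from slightly below miR-210 to far above it. miR-19a, of the miR-17 to miR-92a cluster, rose with a log2 fold change of 0.46. miR-197 fell with a log2 fold change of -0.32 (SE 0.08). miR-181c, miR-365 and miR-193a had log2 fold changes of 0.06, 0.11 and -0.12 with FDRs from 0.197 to 0.541 by edgeR's quasi-likelihood test. Under upper-quartile scaling miR-181c and miR-365 changed sign, at -0.18 and -0.13, of which miR-181c passed as lower (FDR = 0.045 in edgeR). miR-193a passed as lower under 3 of the 5 other scalings, at -0.37 with upper-quartile factors and -0.18 in the other two.

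Against single miRNAs that are often used as references in qRT-PCR, miR-210 was lower in every comparison. Per 1000 reads of miR-16 there were 114, 107 and 117 reads of miR-210 in CHMm and 29.6, 33.4 and 34.1 in CHMmTAM. The ratio of the line means was 3.47. It was 3.23 per let-7a, 4.17 per miR-191, 5.13 per miR-93 and 5.58 per miR-103. For each of the 5 references all CHMm ratios were above all CHMmTAM ratios, and the exact two-sided permutation test gave p = 0.1, also after adjustment over the 5. The references themselves differed between the lines. miR-93 and miR-103 rose with log2 fold changes of 0.48 and 0.60, let-7a fell with -0.18, and miR-16 had -0.08 (FDR = 0.327 by edgeR's quasi-likelihood test), but passed as lower under upper-quartile scaling, at -0.32. miR-191 rose with 0.19, did not pass under 3 of the 5 other scalings and changed sign under upper-quartile scaling, at -0.05.

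Other miRNAs reported as raised by low oxygen did not move with miR-210 as a group. The list held the miR-23, miR-24, miR-26, miR-27, miR-103/107 and miR-181 families with miR-155 and miR-424, and all 15 were tested. 4 rose and 4 fell at an FDR below 0.05, and 7 did not pass. Over all tested miRNAs 25.4% passed as higher and 18.7% as lower. The median log2 fold change of the list was 0.06, equal to that of all miRNAs, and its members ranged from -0.73 to 1.26, where miR-210 had -1.88. Under upper-quartile scaling, which lowered all values, 4 members rose and 9 fell, and none of the 8 called before changed its sign. That scaling moved the median of all tested miRNAs to -0.18. Its calls past both thresholds went to 12 higher and 22 lower, from 17 and 15. The shares above come from the TMM fit, so the counts under upper-quartile scaling cannot be set against them.

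The falling members were miR-155, miR-26a, miR-26b and miR-27a. miR-155, which is induced in activated immune cells and targets HIF1A, went from 2957 ± 122 to 1787 ± 62.5 CPM (SD, n = 3), a log2 fold change of -0.73. miR-26a and miR-26b, near-identical miRNAs encoded in CTDSP genes, fell with -0.54 and -0.53, and how the counting split reads between such copies is not given in the sources used here. miR-27a had -0.27 and its lines overlapped. The rising members came from 2 families. miR-181a went from 251 ± 7.47 to 601 ± 24.7 CPM and was the only member past both thresholds, at 1.26. miR-181b rose with 0.84, and miR-181c and miR-181d had 0.06 and 0.07 (FDR = 0.541 and 0.394 by edgeR's quasi-likelihood test). Under upper-quartile scaling both passed as lower, at -0.18 and -0.17. miR-103 and miR-107, which differ in little of their sequence and repress DICER1, rose with 0.60 and 0.47. The most abundant members, miR-27b, miR-24 and miR-27a, had 38184, 28690 and 26213 CPM in CHMm. miR-27b and miR-24 had log2 fold changes of -0.14 and 0.09 with FDRs of 0.055 and 0.219 by the same test. The call of miR-27b turned on the scaling. It passed as lower under 4 of the 5 others, at -0.14 by library totals to -0.38 by upper-quartile factors. It did not pass when scaled by the 5 references (FDR = 0.238 in edgeR). That scaling used the summed reads of the 5, most of them let-7a, which itself fell with -0.18.

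**Figure D4:**
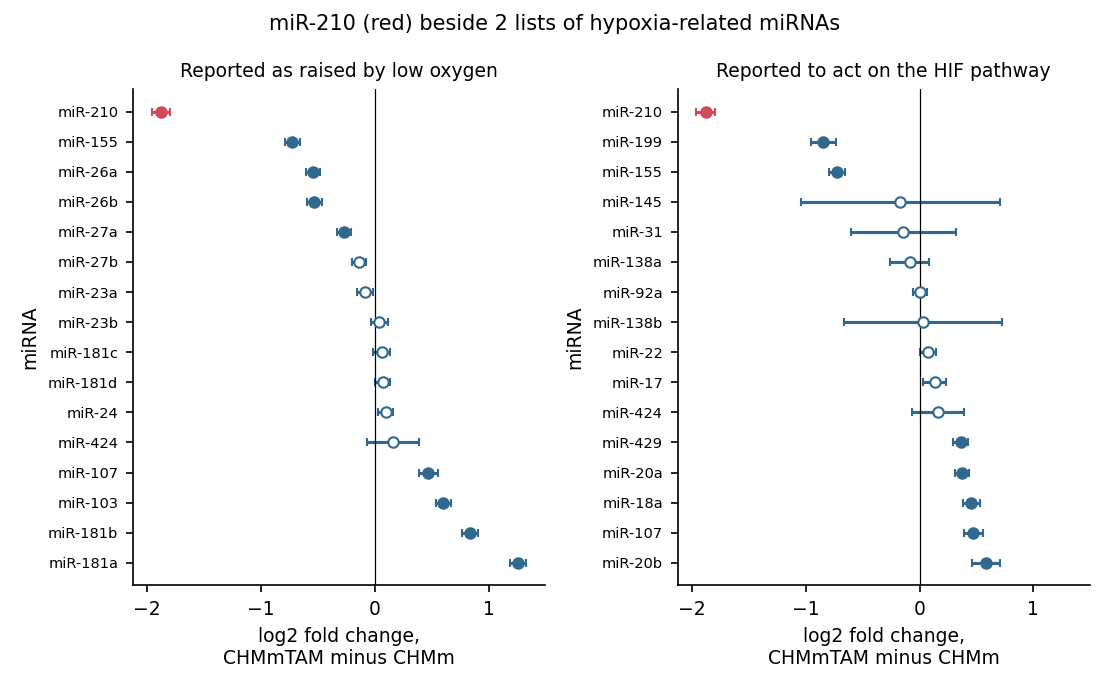
Log2 fold change of CHMmTAM minus CHMm (horizontal axis, bars are the fitted standard error) of the tested members of 2 lists of hypoxia-related miRNAs (vertical axis), with miR-210 in red above each list and filled points for an FDR below 0.05. miR-210 at -1.88 lies below every member, and the members spread to both sides of 0.

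miRNAs reported to act on HIF subunits or on their regulators were the second list, and 15 of its 17 names were in the table and tested. 5 rose, 2 fell and 8 did not pass at an FDR below 0.05, where 25.4% of all tested miRNAs rose and 18.7% fell, with a median log2 fold change of 0.07 and none past both thresholds. Shared with the first list were 3 members, miR-107, miR-155 and miR-424. The rising members were miR-20b at 0.58, miR-107 at 0.47, miR-18a at 0.45, miR-20a at 0.37 and miR-429 at 0.36. miR-18a and the miR-20 pair belong to the miR-17 family clusters, which target HIF1A, and miR-429 is a miR-200 family member. Under upper-quartile scaling miR-20a and miR-429 kept their direction but not their call, at 0.13 and 0.12. The falling members were miR-155 and miR-199. miR-199, which targets HIF1A and is typical of mesenchymal cells, went from 37.8 ± 2.58 to 21.2 ± 2.53 CPM (SD, n = 3), a log2 fold change of -0.85. The 3 most abundant members in CHMm were miR-92a, miR-20a and miR-155, of which miR-92a had a log2 fold change of 0.003 (FDR = 0.986 by edgeR's quasi-likelihood test), but passed as lower under upper-quartile scaling, at -0.24. miR-31, which targets the HIF hydroxylase FIH, had at most 13 reads in any library and a log2 fold change of -0.14 with a wide error (SE 0.46, FDR = 0.856 by the same test).

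Markers of cell types were checked in the 6 small RNA libraries. The 7 epithelial miRNAs, the miR-200 family with miR-205 and miR-203, were detected in every library and summed to between 24457 and 26853 CPM in CHMm and between 21958 and 23739 CPM in CHMmTAM. Its members moved both ways, with miR-200a, miR-200b and miR-429 higher by 0.21 to 0.36 and miR-205 and miR-203 lower, at -0.66 and -0.24 (log2). Over all tested miRNAs 25.4% passed as higher and 18.7% as lower. The lines overlapped for miR-200b. Under upper-quartile scaling none of the 3 higher members passed, miR-200b changed sign at -0.03, and it passed under none of the 5 other scalings. miR-200c and miR-141 had -0.06 and -0.09 (FDR = 0.461 and 0.266 by edgeR's quasi-likelihood test). Both passed as lower under upper-quartile scaling, at -0.30 and -0.34, and miR-141 also under RLE, at -0.16. Blood cell miRNAs summed to at most 6.12 CPM in CHMm and at most 15.0 CPM in CHMmTAM, and miR-486 and miR-142 of the 4 tested rose, where 25.4% of all tested miRNAs did. miR-142 did not pass under upper-quartile scaling (FDR = 0.0537 in edgeR). The 4 tested striated muscle miRNAs all rose, where 25.4% of all tested miRNAs did. This list summed to between 8.996 and 10.5 CPM in CHMm and between 42.3 and 45.0 CPM in CHMmTAM. Of its members, miR-133b had only 2, 6 and 3 reads in CHMm. There miR-133a had 23, 32 and 26 reads and miR-133c 26, 29 and 24, and how reads that match several miRNAs were assigned is not given. The summed CPM of the fibroblast and smooth muscle list fell from between 38.6 and 48.3 to between 23.8 and 28.1, most of it miR-199. Of its 4 tested members 1, miR-199, passed as lower, where 18.7% of all tested miRNAs did. miR-143 went the other way, at 0.54 (FDR = 0.129 by edgeR's quasi-likelihood test). miR-145 and miR-214 had -0.17 and -0.55 (FDR = 0.914 and 0.178 by the same test). miR-214 passed as lower under upper-quartile scaling, at -0.79. Endothelial miR-126 had no read in CHMm and at most 3 in CHMmTAM, and hepatocyte miR-122 had at most 39 reads. Of the neural miRNAs, miR-124 had at most 1 read, while miR-9 and miR-128, which other cells also express, were abundant. miR-128 fell from 1213 to 667 CPM, a log2 fold change of -0.86, and miR-9 had -0.06 (FDR = 0.4998 by edgeR's quasi-likelihood test). The part of these miRNAs in the fall of miR-210 was not tested, and in bulk libraries fewer cells that hold miR-210 and less of it per cell cannot be told apart. Between libraries of the same line, the chi-square of the counts over all miRNAs was from 26.3 to 85.8 per degree of freedom, far above sampling noise. Each library was counted as a sample of its own, although this spread cannot show whether the libraries came from separate cultures.

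The fall of miR-210 kept its direction and its call under every other setting run. Over these 19 its log2 fold change ranged from -2.12 under upper-quartile scaling to -1.77 without CHMmTAM replicate 1, and it passed both thresholds in each. Upper-quartile scaling shifted the median log2 fold change of all miRNAs from 0.06 to -0.18. A test against a 2-fold change also called it, with an FDR of 3.70e-25 by glmTreat in edgeR.

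**Figure D5:**
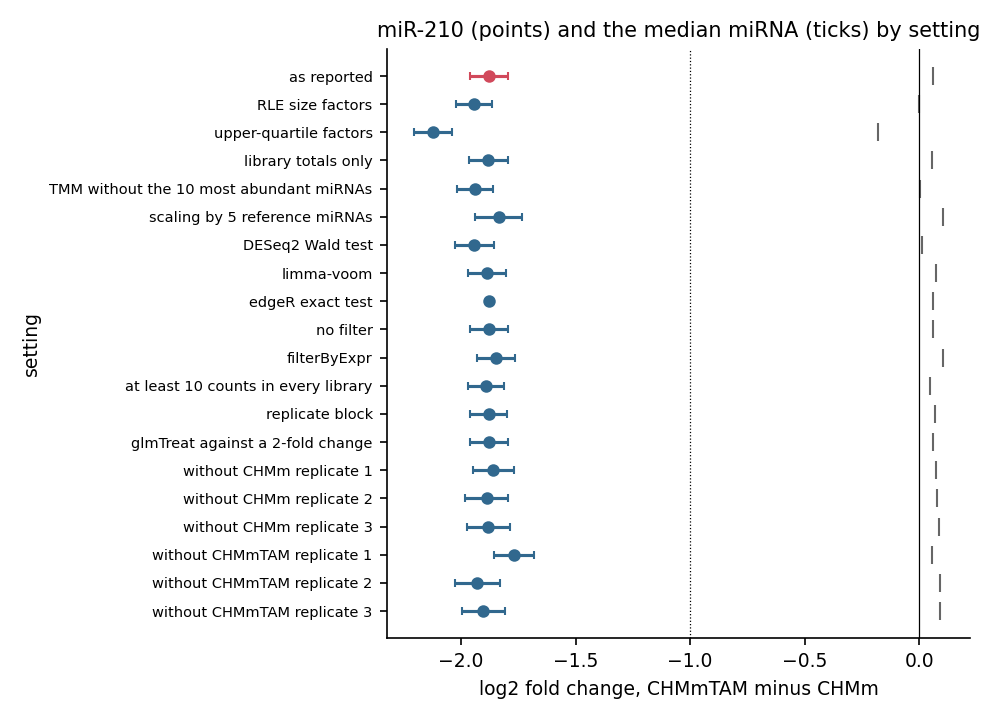
Log2 fold change of miR-210 (points, horizontal axis) with its standard error where the test gives one, and the median over all tested miRNAs (ticks), as reported and under 19 other settings (vertical axis). All points lie between -2.12 and -1.77, below the dotted line at -1.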

How the data were processed

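Small RNA of CHMm and CHMmTAM was sequenced on a HiSeq instrument from purified miRNA. Per the file headers the deposited table holds whole-number counts for each mature miRNA with a column per library, not normalized by the authors. The submitters' processing notes name HISAT2 2.0.4, BWA and the build CanFam3.1 without their roles. The miRNA database, trimming and the treatment of reads that match several miRNAs are not given in the sources used here. The 6 RNA-seq libraries were not analysed here. Totals of 7512659 to 12482211 counts put 3 counts at 0.240 to 0.399 CPM.

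miRNAs with at least 10 counts in total were fitted with edgeR 4.0.16 in R 4.3.3 (TMM factors, quasi-likelihood test, no block), with Benjamini-Hochberg adjustment over all 284 tested. The study states thresholds but no test. Log2 CPM for profiles used a prior count of 2. Exact permutation tests used SciPy 1.17.1. The fit was tested on simulated data. Alternatives used DESeq2 1.42.0 and limma 3.58.1.

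Members and lists were chosen with earlier results of these data known. Named miRNAs were the 5 nearest in profile, the 3 on each side in level in CHMm and in fold change, the list members past both thresholds and the 3 most abundant, and the references. Further list members are named as examples, chosen after their values were seen. The part of the rule that used mature sequences was not applied.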

Additional observations from a re-analysis of the deposited data

How the results depend on the processing

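The log2 fold change of miR-210 kept its direction and its call in all 19 alternatives run. With each library left out in turn it ranged from -1.93 to -1.77, and its FDR over all alternatives ranged from 1.80e-113 by the edgeR exact test to 1.34e-09 without CHMm replicate 1. With the replicate number as a block it was -1.88, and 31 miRNAs passed both thresholds against 32 without it. Whether the replicate numbers pair the libraries is not known. The correlations of deviations between same-numbered libraries were 0.06, 0.46 and -0.31, and with 3 libraries per line these cannot decide it. The block changed no call of miR-210 or of the lists. The count of 32 miRNAs past both thresholds was 125 by FDR alone (72 higher, 53 lower), 21 when glmTreat tested for more than a 2-fold change (11 higher, 10 lower), and from 30 to 34 with a library left out. Upper-quartile scaling called 13 members of the low-oxygen list, 4 higher and 9 lower, in place of 8, and its shift of all miRNAs goes in that direction. It also moved the calls past both thresholds to 12 higher and 22 lower from 17 and 15. The ratios to references and the CPM difference, left out library by library as a choice made after seeing the data, kept their direction. Precision is limited by 3 libraries per line more than by depth.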
